A study of Mus musculus with 6 samples.

Results

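The genes described here are 9 mouse Toll-like receptor genes (Tlr1, Tlr2, Tlr3, Tlr4, Tlr6, Tlr7, Tlr8, Tlr9 and Tlr13) and Cd14, which encodes a co-receptor. They were chosen by symbol, and each of the 10 symbols matched a gene among the 57180 genes of the deposited table. RNA was sequenced from CD36+ NK and CD36- NK cells of the fibrotic mouse liver, with 3 libraries of each. The donors were male C57BL/6J mice of 6 to 8 weeks. All of them had received CCl4, a liver toxin that causes fibrosis, as 2.5 ml/kg of a 20% solution in olive oil, with 2 injections a week for 4 weeks, and livers were taken 48 h after the last injection. Cells of both groups therefore came from treated animals, and no library of untreated liver was compared. The study defined NK cells as CD3- NK1.1+, and CD36, a scavenger receptor that takes up fatty acids, separated the fractions. The labels call the libraries biological triplicates without naming animals, so the p-values measure the spread between these libraries.

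Toll-like receptors are membrane proteins that recognise conserved microbial molecules and products of damaged cells. TLR1, TLR2, TLR4 and TLR6 act mainly at the cell surface, whereas TLR3, TLR7, TLR8, TLR9 and TLR13 recognise nucleic acids inside endosomes. Most of them signal through the adaptor MYD88 to NF-κB and interferon regulatory factors, which switch on cytokine genes. In the liver, which receives bacterial products from the gut through the portal vein, these receptors are best known on Kupffer cells and other myeloid cells, and TLR7 and TLR9 also on B cells and plasmacytoid dendritic cells. CD14 binds lipopolysaccharide and hands it to TLR4, and CD36 is itself known as a co-receptor of TLR2 with TLR6.

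Libraries held between 10292480 and 13787189 counts, and 14761 genes had enough counts to be tested. The titles of the samples and the names of the libraries write the sign of CD36 differently. The titles were followed, and Cd36 lay between 110 and 263 CPM (counts brought to 1 library size by TMM scaling) in the libraries titled CD36+ and between 14.3 and 31.7 CPM in those titled CD36-. The NK cell label was checked against 10 NK lineage markers, among them Gzma and Nkg7. Their summed level was 933 to 1129 CPM in CD36+ NK and 4956 to 6310 CPM in CD36- NK, and all 10 were lower in CD36+ NK. Markers of B cells and of macrophages were present in every library, with summed levels given beside the results below.

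The promoters of 4 members are shown because these had the largest fold changes between the fractions of the 9 Toll-like receptors among the members. The sequences are those of RefSeq (build GRCm38.p6). Of the 10 members, 7 were matched there by symbol, with 9 promoters, and the unmatched members were Tlr4, Tlr7 and Cd14. Each line gives the 250 bases before the start site, 5′ to 3′ on the strand of the gene. Capitals mark matches to GAGGAA (the core bound by ETS factors such as PU.1, a myeloid and B cell regulator), GAAANNGAA (a pair of sites of interferon regulatory factors), TGANTCA (AP-1) or TTGCNNAA (C/EBP), on either strand. The Tlr2 promoter lies at chr3:83841609-83841858 on the minus strand, that of Tlr3 at chr8:45410381-45410630 on the minus strand, that of Tlr13 at chrX:106143025-106143274 on the plus strand and that of Tlr8 at chrX:167264330-167264579 on the minus strand.
Tlr2: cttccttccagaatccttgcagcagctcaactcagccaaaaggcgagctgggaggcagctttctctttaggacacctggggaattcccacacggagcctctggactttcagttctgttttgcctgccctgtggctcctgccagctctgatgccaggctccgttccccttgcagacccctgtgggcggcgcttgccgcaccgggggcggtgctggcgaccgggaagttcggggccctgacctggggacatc
Tlr3: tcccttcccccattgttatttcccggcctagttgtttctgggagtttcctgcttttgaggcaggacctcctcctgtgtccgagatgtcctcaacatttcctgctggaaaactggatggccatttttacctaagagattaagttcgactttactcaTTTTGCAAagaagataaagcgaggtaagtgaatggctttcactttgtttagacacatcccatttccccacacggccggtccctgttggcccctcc
Tlr13: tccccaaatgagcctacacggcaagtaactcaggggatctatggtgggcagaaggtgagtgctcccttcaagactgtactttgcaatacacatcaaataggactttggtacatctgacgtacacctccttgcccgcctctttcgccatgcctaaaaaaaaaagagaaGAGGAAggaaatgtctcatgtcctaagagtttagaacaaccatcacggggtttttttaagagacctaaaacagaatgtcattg
Tlr8: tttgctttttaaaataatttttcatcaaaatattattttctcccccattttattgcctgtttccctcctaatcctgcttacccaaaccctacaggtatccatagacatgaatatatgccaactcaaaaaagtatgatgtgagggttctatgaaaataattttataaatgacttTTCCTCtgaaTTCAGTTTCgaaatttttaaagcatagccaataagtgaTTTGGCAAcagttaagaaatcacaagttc

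The Tlr13 and Tlr8 promoters each hold a GAGGAA match, at -83 and -77 from the start site. The Tlr8 promoter also holds a GAAANNGAA match at -67 whose letters do not overlap the first, and TTGCNNAA matches lie in the 250 bases of Tlr3 and Tlr8. Past these bases, from the start site on, Tlr13 holds 1 such match and Tlr8 a further one. The 250 bases of Tlr2 hold none of the 4 motifs. Over full entries, which run from 250 bases before to 50 bases after the start, GAGGAA occurred in 4 of the 9 member promoters and in 28.3% of 32841 promoters. GAAANNGAA occurred in 2 of the 9 and in 8.56% of all, TGANTCA in 1 and in 7.81%, and TTGCNNAA in 4 and in 10.8%. These matches are letters in a window and were not tested as binding sites.

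Tlr1 and Tlr6 are neighbours on chromosome 5 with similar coding sequences, and the sequence they share bears on how far their counts can be told apart. In the GENCODE M21 transcripts, 454 of the 3332 words of 50 bases in Tlr1 (13.6%) also occur in Tlr6, where they are 12.3% of 3702. No other pair of members shared a word of that length. The longest shared run has 229 bases and lies inside the coding sequence of both genes, at chr5:64925537-64925765 in Tlr1 and at chr5:64953828-64954056 in Tlr6, both on the minus strand of GRCm38.
Tlr1 and Tlr6: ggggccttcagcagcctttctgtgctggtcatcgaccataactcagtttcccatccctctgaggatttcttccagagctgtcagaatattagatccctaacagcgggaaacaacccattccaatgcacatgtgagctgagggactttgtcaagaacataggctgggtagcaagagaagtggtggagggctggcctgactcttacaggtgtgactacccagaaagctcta

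Fragments that lie wholly in such a run cannot be assigned to 1 of the genes from their sequence, so the values of Tlr1 and Tlr6 are uncertain to that extent. How the counting treated such fragments is not given in the sources used here. The other 8 members share no stretch of 50 bases with another member.

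All 10 members passed the filter on low counts and had a positive log2 fold change in CD36+ NK over CD36- NK. Of these, 4 were DEGs, namely Cd14, Tlr2, Tlr3 and Tlr13, all higher in CD36+ NK. A DEG is a gene whose edgeR adjusted p was below 0.05 with more than a 2-fold difference. Only Cd14 was still a DEG without CD36+ NK replicate 2, without CD36+ NK replicate 3 or without CD36- NK replicate 3, and only Cd14 and Tlr2 were without CD36- NK replicate 1. As every fitted difference was positive, 0 members were lower at any p-value, in edgeR and in DESeq2. Among all tested genes, 5.96% were DEGs in either direction and 2.98% were higher DEGs. Without the fold threshold 7 members passed the adjusted p-value, where 5.07% of all tested genes were higher. In 8 members every CD36+ NK library lay above every CD36- NK library, as in 17.0% of all tested genes, and the exceptions were Tlr4 and Tlr7. The median log2 fold change of the members was 1.12, with a range of 0.67 to 1.70, and that of all tested genes was 0.01. Summed over the members, the level was 668 to 948 CPM in CD36+ NK and 292 to 507 CPM in CD36- NK. These are bulk libraries, in which fewer cells of a type and less RNA per cell cannot be told apart. All 10 tested markers of macrophages and Kupffer cells also had positive log2 fold changes, and their part in these differences was not tested.

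**Figure D1:**
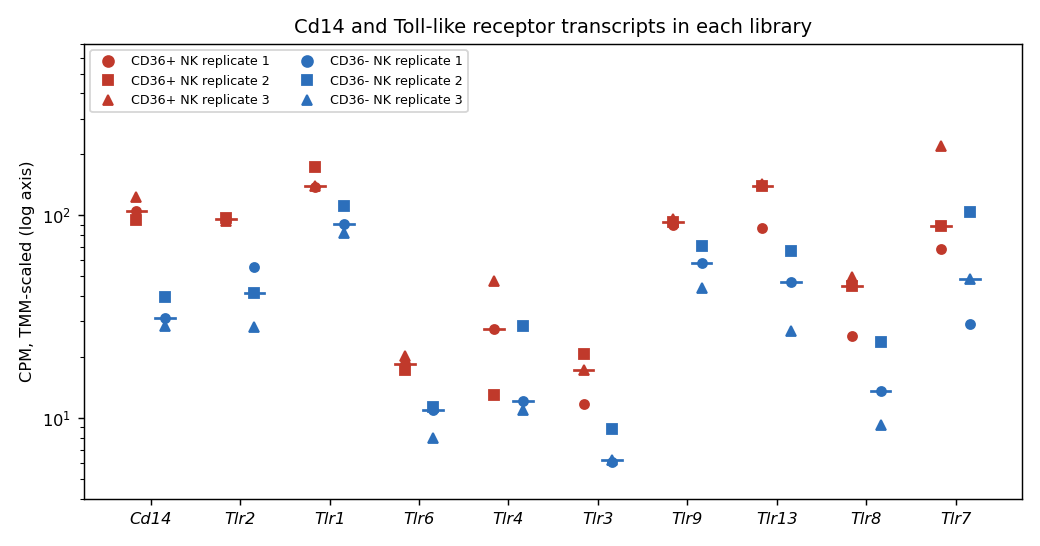
CPM (TMM-scaled, log axis) of the 10 members in each of the 6 libraries, with red symbols for CD36+ NK, blue symbols for CD36- NK, a symbol shape for each replicate and a short line at each median. Red and blue separate in 8 members and overlap in Tlr4 and Tlr7, where CD36- NK replicate 2 lies within the range of the CD36+ NK libraries.

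Cd14 (ENSMUSG00000051439) had the lowest p-value of the members. It encodes a lipid-anchored surface protein that binds lipopolysaccharide and is a classical marker of monocytes and macrophages. It spans 36858120 to 36859851 of chromosome 18, minus strand, in the coordinates of the table (no build is named there, here and for the genes that follow). Its level was 106, 94.7 and 123 CPM in CD36+ NK replicates 1 to 3 and 31.3, 39.6 and 28.4 CPM in CD36- NK replicates 1 to 3. The groups stayed far apart, since the lowest CD36+ NK library was above the highest CD36- NK library by more than the whole range within either group. On the log2 scale the fold change was 1.70 (SE 0.16, edgeR adjusted p = 0.00167), where SE is the standard error. Cd14 passed both thresholds in all 14 alternative fits (another tool, other normalizations and filters, blocks, and fewer libraries), with log2 fold changes between 1.59 and 1.85 and an adjusted p of at most 0.039.

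Tlr2 (ENSMUSG00000027995; minus strand of chromosome 3, 83743579 to 83749074 in the table) encodes the receptor for bacterial lipoproteins, which pairs with TLR1 or TLR6. It stood at 96.0, 97.3 and 93.5 CPM in CD36+ NK and at 55.7, 41.3 and 28.2 CPM in CD36- NK. The CD36+ NK libraries were nearly level, with an SD of 1.94 CPM, while the CD36- NK libraries spread over 13.7 CPM (SD, n = 3), and the groups did not overlap. This was a log2 fold change of 1.19 (SE 0.22, edgeR adjusted p = 0.0199). The adjusted p rose to 0.0716 without CD36+ NK replicate 2 and to 0.0651 without CD36+ NK replicate 3, and without CD36- NK replicate 3 the log2 fold change was 0.97, under the fold threshold.

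For the partners of TLR2 the estimated differences were below 2-fold. The 95% interval of Tlr6, 0.55 to 1.21 on the log2 scale, reached past 2-fold. Whether the partners differed by less than Tlr2 was not tested. Tlr1 (ENSMUSG00000044827; minus strand of chromosome 5, 65082022 to 65090906), whose product recognises triacylated lipopeptides with TLR2, stood at 138, 173 and 139 CPM in CD36+ NK and at 90.5, 111 and 81.9 CPM in CD36- NK. Tlr6 (ENSMUSG00000051498; minus strand of chromosome 5, 65109374 to 65117440), whose product recognises diacylated lipopeptides with TLR2, stood at 18.5, 17.4 and 20.2 CPM in CD36+ NK and at 10.9, 11.4 and 8.01 CPM in CD36- NK. Neither gene overlapped between the groups. Log2 fold changes were 0.67 for Tlr1 (SE 0.15, edgeR adjusted p = 0.0342) and 0.88 for Tlr6 (SE 0.17, edgeR adjusted p = 0.0219). For Tlr1 the adjusted p was between 0.0812 and 0.116 without CD36+ NK replicate 2 or 3 or CD36- NK replicate 1 or 3. For Tlr6 it was between 0.0648 and 0.0862 without CD36+ NK replicate 2 or 3 or CD36- NK replicate 1. A fit with a term for the replicate number (a replicate block) gave Tlr6 an adjusted p of 0.0607.

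Tlr4 (ENSMUSG00000039005; plus strand of chromosome 4, 66745821 to 66848521), the receptor for lipopolysaccharide, overlapped between the groups. It stood at 27.7, 12.95 and 47.4 CPM in CD36+ NK and at 12.2, 28.4 and 10.9 CPM in CD36- NK. CD36- NK replicate 2 was higher than 2 of the CD36+ NK libraries, and CD36+ NK replicate 2 was close to the 2 lowest CD36- NK libraries. The log2 fold change of 0.77 (SE 0.53, edgeR adjusted p = 0.416) did not pass the test. It was 0.24 without CD36+ NK replicate 3, 1.13 without CD36+ NK replicate 2 and 1.33 without CD36- NK replicate 2, and passed in 0 of the 14 alternative fits. In the table the gene overlaps Gm57137 on the same strand, which held 441 counts over the 6 libraries beside 1649 for Tlr4, so fragments of the shared part could have gone to either.

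Of the endosomal receptors, Tlr3 (ENSMUSG00000031639; minus strand of chromosome 8, 45848702 to 45864117) binds double-stranded RNA and signals through the adaptor TICAM1 alone. It was among the members of lowest level, at 11.8, 20.8 and 17.2 CPM in CD36+ NK and at 6.07, 8.84 and 6.25 CPM in CD36- NK, and the groups did not overlap. Tlr3 thus had a log2 fold change of 1.24 (SE 0.26, edgeR adjusted p = 0.0283). The adjusted p was between 0.0934 and 0.103 without CD36+ NK replicate 2 or 3 or CD36- NK replicate 1 or 3.

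Tlr13 (ENSMUSG00000033777; plus strand of chromosome X, 105186810 to 105204099), a receptor for bacterial ribosomal RNA that humans lack, had the largest fold change of the Toll-like receptors. Its lead over Tlr11 (1.363 on the log2 scale) and Tlr8 (1.356) was far smaller than its SE. Without CD36- NK replicate 2, Tlr8 was larger, at 1.79 against 1.72 for Tlr13. It stood at 86.6, 139 and 143 CPM in CD36+ NK and at 47.2, 66.8 and 27.1 CPM in CD36- NK. The lowest CD36+ NK library, replicate 1, was above the highest CD36- NK library, replicate 2, by less than the range within either group. With a log2 fold change of 1.38 (SE 0.33, edgeR adjusted p = 0.0433), this call was close to the threshold, since the adjusted p was between 0.0801 and 0.133 without CD36+ NK replicate 2 or 3 or CD36- NK replicate 1 or 3, and 0.058 with no filter on low counts. It was also 0.071 with the replicate number as a block, 0.0567 with a block that sets replicate 1 of each group, whose library names have another form, apart from replicates 2 and 3, and 0.122 in replicates 2 and 3 only.

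Tlr9 (ENSMUSG00000045322; plus strand of chromosome 9, 106099797 to 106104082) recognises unmethylated CpG DNA. It stood at 90.2, 93.0 and 96.4 CPM in CD36+ NK and at 58.3, 70.9 and 43.8 CPM in CD36- NK, again level among the CD36+ NK libraries (SD 3.14 CPM) and wider among the CD36- NK libraries (SD 13.6 CPM). Its log2 fold change was 0.69 (SE 0.17, edgeR adjusted p = 0.0435). The adjusted p was between 0.0673 and 0.132 without any single library other than CD36- NK replicate 2, 0.066 with no filter on low counts, 0.0693 with the replicate block and 0.0589 with the block by form of library name.

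Tlr7 and Tlr8, receptors for single-stranded RNA, lie next to each other on the minus strand of chromosome X, 40.6 kb apart. Tlr8 (ENSMUSG00000040522; 166025692 to 166047325) stood at 25.4, 44.9 and 49.7 CPM in CD36+ NK and at 13.7, 23.9 and 9.28 CPM in CD36- NK. Its groups did not overlap, but the lowest CD36+ NK library was only just above the highest CD36- NK library, and the log2 fold change of 1.36 (SE 0.38) did not pass the test (edgeR adjusted p = 0.066). The adjusted p of Tlr8 was 0.0377 without CD36+ NK replicate 1, 0.0222 without CD36- NK replicate 2 and 0.00305 with DESeq2.

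Tlr7 (ENSMUSG00000044583; 166087925 to 166113554) stood at 68.3, 88.4 and 219 CPM in CD36+ NK and at 29.0, 104 and 48.3 CPM in CD36- NK. CD36+ NK replicate 3 was far above the other libraries, and CD36- NK replicate 2 was above the other 2 CD36+ NK libraries. The log2 fold change of 1.05 (SE 0.57, edgeR adjusted p = 0.303) did not pass the test, and it was 0.38 without CD36+ NK replicate 3 and 1.69 without CD36- NK replicate 2. What size of difference could be detected with 3 libraries of this spread was not tested.

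**Figure D2:**
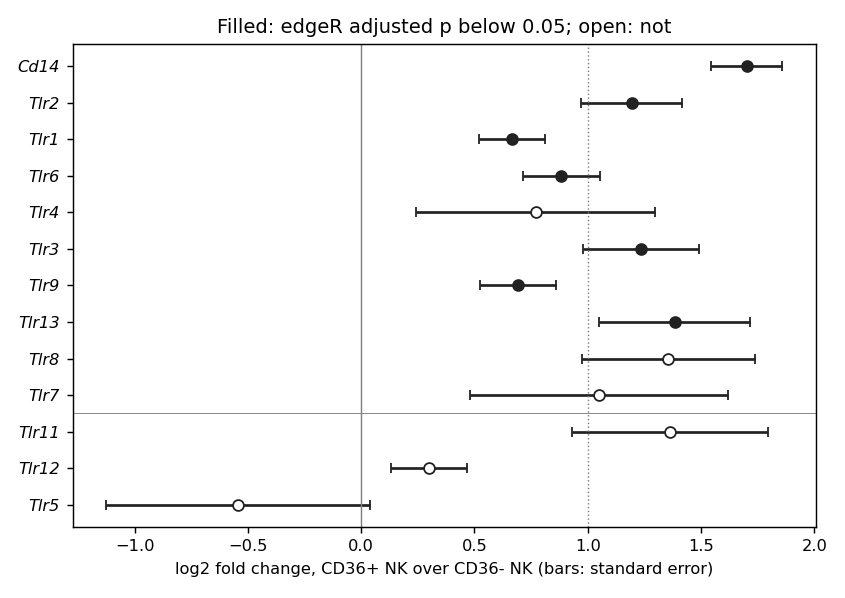
Log2 fold change of the 10 members and, below the horizontal line, of the 3 other mouse Toll-like receptor genes, in CD36+ NK over CD36- NK. Bars are standard errors, filled points have an edgeR adjusted p below 0.05, the dotted line marks a 2-fold difference, and Tlr5, at -0.54, is the only gene left of 0.

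The 3 other Toll-like receptor genes of the mouse did not pass the adjusted p-value in edgeR, and DESeq2 called 1 of them, Tlr11, higher. Tlr11, a receptor for protozoan profilin, stood at 8.02 to 9.31 CPM in CD36+ NK and at 1.37 to 5.66 CPM in CD36- NK (log2 fold change 1.36, SE 0.43, edgeR adjusted p = 0.0932). Its adjusted p was 0.0219 with DESeq2 and 0.0227 in edgeR without CD36- NK replicate 2, and between 0.089 and 0.292 in the other 12 alternative fits. Tlr12, which pairs with TLR11, stood at 11.5 to 13.6 CPM and 8.61 to 11.6 CPM (log2 fold change 0.30, edgeR adjusted p = 0.313). Tlr5, the receptor for bacterial flagellin, had 59 counts over the CD36+ NK libraries and 81 over the CD36- NK libraries (log2 fold change -0.54, edgeR adjusted p = 0.622).

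The order of the libraries was the same in 3 members, Tlr8, Tlr9 and Tlr13, with CD36+ NK replicate 3 highest, then CD36+ NK replicates 2 and 1, then CD36- NK replicates 2, 1 and 3. Among all tested genes, 3.5% had that order, as had 5 of 86 genes of the other pathway lists and 5 of 101 markers of other cell types. Of the 12 macrophage and Kupffer cell markers, 5 had it (Adgre1, Timd4, Cd5l, Csf1r and Cd68) and 7 did not. C1qa, C1qb, C1qc and Marco departed from it only in CD36- NK replicates 1 and 3, at 22.8 and 23.4 CPM for C1qa. Clec4f and Vsig4 had too few counts to be tested. Lyz2, the most abundant, was highest in CD36- NK replicate 1. The part of macrophages in the order was not tested. CD36- NK replicate 3 was the lowest library in 8 of the 10 members, and CD36- NK replicate 2 was the highest CD36- NK library in 9, with Tlr2 as the exception.

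Between genes, levels were compared per length, as the deposited FPKM. In CD36+ NK, Cd14 was highest, with a median of 42.6 FPKM (37.2 to 46.8). It was followed by Tlr2 (31.8), Tlr13 (31.0), Tlr9 (26.4) and Tlr1 (22.7), then by Tlr7 (7.58), Tlr8 (5.67), Tlr4 (4.14), Tlr12 (3.60), Tlr6 (2.79), Tlr11 (1.44), Tlr3 (1.39) and Tlr5 (0.153). The ranges of neighbours in this order were apart between Cd14 and Tlr2, Tlr1 and Tlr7, Tlr12 and Tlr6, Tlr6 and Tlr11, and Tlr3 and Tlr5, and overlapped in the other 7 pairs.

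In CD36- NK the same 5 genes led but in another order, with medians of 16.9 FPKM for Tlr9, 14.9 for Tlr1, 14.1 for Tlr2, 12.6 for Cd14 and 10.9 for Tlr13. They were followed by Tlr7 (4.18), Tlr12 (3.12), Tlr4 (1.83), Tlr8 (1.77), Tlr6 (1.64), Tlr3 (0.525), Tlr11 (0.501) and Tlr5 (0.199). Here the ranges of all neighbours overlapped except those of Tlr6 and Tlr3, so the order among the leading 5 genes was not resolved. Cd14 thus lay above all other genes of the order in CD36+ NK, while its place among the leading 5 in CD36- NK was not resolved.

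**Figure D3:**
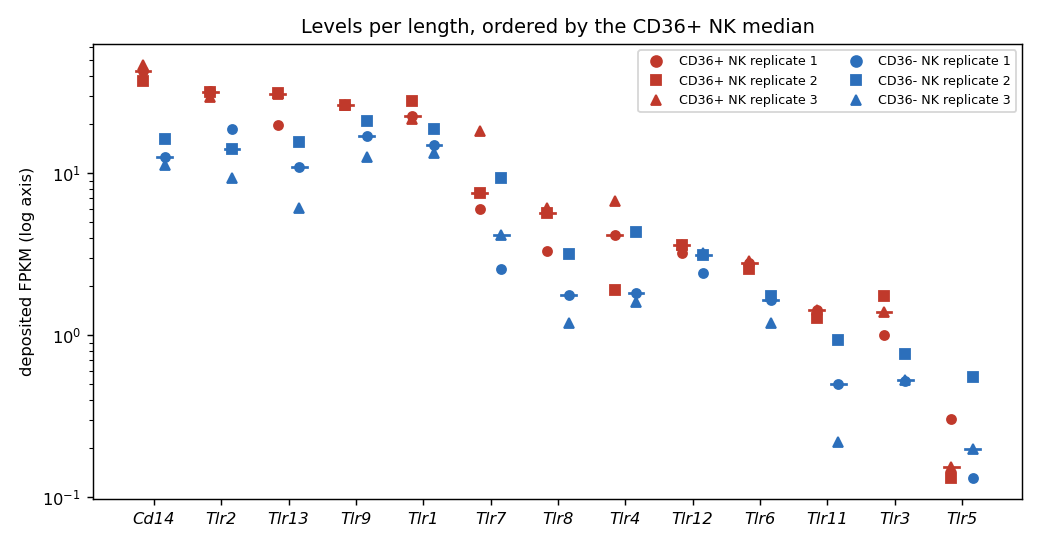
Deposited FPKM (log axis) of the 13 mouse Toll-like receptor and Cd14 genes in each library, ordered by the CD36+ NK median, with red for CD36+ NK, blue for CD36- NK, a shape for each replicate and a short line at each median. Cd14, Tlr2, Tlr13, Tlr9 and Tlr1 lie above the other genes in the CD36+ NK libraries, and Tlr5 lies lowest in median in both groups.

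Ratios within a library show how the receptor partners stood to each other. Tlr1 exceeded Tlr6 per length by 7.51 to 10.9 times in CD36+ NK and by 9.05 to 11.2 times in CD36- NK, ranges that overlap. Tlr2 was 1.15 to 1.42 times Tlr1 in CD36+ NK and 0.704 to 1.26 times Tlr1 in CD36- NK, which also overlap. Cd14 was 6.976 to 19.7 times Tlr4 in CD36+ NK and 3.76 to 6.999 times Tlr4 in CD36- NK, ranges that only just overlap.

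The genes that work with these receptors differed in part. In the 8 lists of the pathway outside the members, 82 of 86 genes were tested, of which 9 were higher DEGs and 3 lower DEGs, and the median log2 fold change was 0.15, with 49 genes above 0 and 33 below. Of the 7 co-receptors and ligand-binding proteins, Cd36 itself, by which the cells were sorted, was the only DEG in edgeR. DESeq2 called 2 of this list higher, with 5 past the adjusted p-value. Cd180, a TLR4 homologue of B cells and myeloid cells, stood at 263, 335 and 381 CPM in CD36+ NK and at 180, 174 and 184 CPM in CD36- NK (log2 fold change 0.86, edgeR adjusted p = 0.0131). Its partner Ly86 passed the adjusted p-value too (log2 fold change 0.79, edgeR adjusted p = 0.0355), as did Rftn1, a lipid raft protein (log2 fold change 0.39, edgeR adjusted p = 0.0379). Ly96, which encodes the TLR4 partner MD-2, lay between 5.70 and 12.6 CPM in CD36+ NK and between 2.74 and 5.04 CPM in CD36- NK and did not pass (log2 fold change 1.12, edgeR adjusted p = 0.095). The adjusted p stayed below the threshold in 12 of the 14 alternative fits for Cd180, 7 for Ly86 and 6 for Rftn1, and was highest without CD36+ NK replicate 2 for Cd180 (0.057) and without CD36+ NK replicate 3 for Ly86 (0.118) and Rftn1 (0.134).

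Of the 8 tested genes for chaperones and trafficking, all had positive log2 fold changes and 4 passed the adjusted p-value. Unc93b1, which carries the nucleic acid receptors to endosomes, stood at 650, 747 and 833 CPM in CD36+ NK and at 482, 488 and 370 CPM in CD36- NK (log2 fold change 0.73, edgeR adjusted p = 0.0245). The DEG of this list was Slc15a3, a lysosomal transporter of histidine and peptides, at 59.9, 76.4 and 76.2 CPM against 30.8, 35.3 and 25.5 CPM (log2 fold change 1.21, SE 0.16, edgeR adjusted p = 0.00584). It passed both thresholds in all 14 alternative fits. The chaperones Cnpy3 and Hsp90b1, which fold Toll-like receptors, had log2 fold changes of 0.51 and 0.34 (edgeR adjusted p = 0.0362 and 0.0466). Unc93b1 passed in 8 of the 14 alternative fits, Cnpy3 in 7 and Hsp90b1 in 5, and without CD36+ NK replicate 3 their adjusted p was 0.0889, 0.123 and 0.158.

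Few of the shared signalling genes passed the test. Of the 5 tested adaptors, 0 passed the adjusted p-value in edgeR and 1 passed it in DESeq2, with 2 below an unadjusted p of 0.05 in edgeR. Myd88 stood at 100 to 129 CPM in CD36+ NK and at 98.4 to 126 CPM in CD36- NK (log2 fold change 0.06, edgeR adjusted p = 0.815). Pik3ap1, an adaptor that links receptors to PI3-kinase in B cells and macrophages, was at 351 to 487 CPM and 283 to 312 CPM (log2 fold change 0.55, edgeR adjusted p = 0.0512). It passed in 6 of the 14 alternative fits, with an adjusted p of 0.00606 in DESeq2 and of 0.0115 to 0.163 in the edgeR alternatives. Of 17 kinases and ubiquitin ligases, Btk, a kinase of B cells and myeloid cells, passed the adjusted p-value (log2 fold change 0.51, edgeR adjusted p = 0.0261), and 12 had negative log2 fold changes. Of 11 transcription factors, Irf5, which drives inflammatory cytokine genes in myeloid cells, passed the adjusted p-value (log2 fold change 0.61, edgeR adjusted p = 0.039). Btk passed in 8 and Irf5 in 6 of the 14 alternative fits, with an adjusted p of up to 0.137 in replicates 2 and 3 only and 0.126 without CD36+ NK replicate 2. Fos and Jun were abundant in both groups, at 1054 CPM or more in each library, and had log2 fold changes of 0.04 and 0.07 that did not pass.

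Of 13 inhibitors of the pathway, 3 passed the adjusted p-value in edgeR, and 4 higher and 2 lower genes passed it in DESeq2. Trib1, a pseudokinase, was a higher DEG at 163, 174 and 144 CPM in CD36+ NK and 92.3, 49.1 and 63.2 CPM in CD36- NK (log2 fold change 1.23, SE 0.22, edgeR adjusted p = 0.0182), and this call was lost in 2 of the 14 alternative fits, with an adjusted p of 0.0702 without CD36- NK replicate 3. Irak3, an inhibitory kinase homologue of myeloid cells, had a log2 fold change of 0.79 (edgeR adjusted p = 0.0229), and Sigirr, an inhibitory receptor, was lower with a log2 fold change of -0.77 (edgeR adjusted p = 0.0142). They passed in 10 and 11 of the 14 alternative fits and had an adjusted p of 0.0852 and 0.0653 without CD36+ NK replicate 2. Tnfaip3, an inducible brake on NF-κB, was not resolved, with 502 to 540 CPM against 399 to 1348 CPM in CD36- NK.

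The inducible targets went in both directions, with 6 higher and 3 lower DEGs among 18 tested. Il1b, a cytokine of myeloid cells, stood at 153, 152 and 134 CPM in CD36+ NK and at 24.5, 22.8 and 16.9 CPM in CD36- NK (log2 fold change 2.77, SE 0.15, edgeR adjusted p = 0.000428). Il1a and Il10, further cytokines, were at low levels, at 5.43 to 10.7 CPM against 0.293 to 1.24 CPM (log2 fold change 3.30) and at 3.90 to 5.25 CPM against 0.195 to 1.08 CPM (log2 fold change 2.84). Cxcl1, a neutrophil chemokine, and Clec4e, a receptor for mycobacterial glycolipid, were higher too, by 3.27 and 1.77 on the log2 scale. Counts of Il10, Il1a and Cxcl1 were low, and in the 13 alternatives that tested them the call held in 13, 12 and 11.

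Lower DEGs were the chemokines Ccl3, Ccl4 and Ccl5, which NK cells themselves make. Ccl5 stood at 293, 232 and 220 CPM in CD36+ NK and at 1395, 1073 and 1515 CPM in CD36- NK (log2 fold change -2.42, edgeR adjusted p = 0.000658), and Ccl3 and Ccl4 had values of -1.42 and -1.89 on that scale. Il1b, Ccl5 and Slc15a3 passed both thresholds in all 14 alternative fits. The call of Ccl3 was lost in 5 of the 14, with an adjusted p of up to 0.12 without CD36+ NK replicate 2, and that of Ccl4 in 2, with up to 0.0806 in replicates 2 and 3 only. Clec4e lost its call in 3 of the 14, with an adjusted p of up to 0.0797 without CD36+ NK replicate 2.

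**Figure D4:**
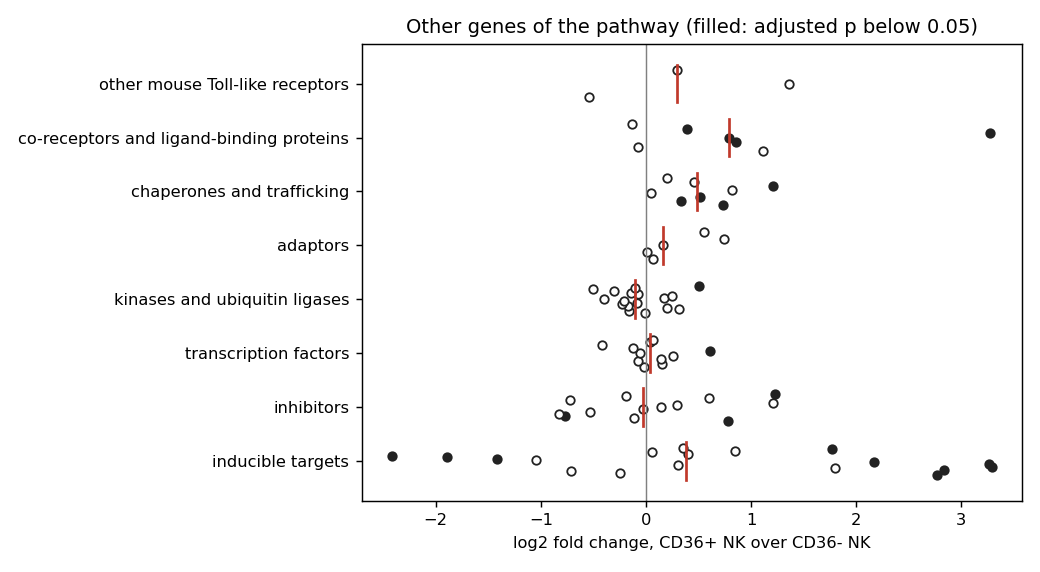
Log2 fold change in CD36+ NK over CD36- NK of the 82 tested pathway genes outside the members, by list. Each point is a gene, filled where the edgeR adjusted p was below 0.05, and a red line marks the median of each list. Kinases and ubiquitin ligases lie close to 0 with 1 filled point, and the inducible targets hold 6 filled points on the right and 3 on the left.

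Summed over each list, markers of macrophages and B cells, in which Toll-like receptors are known to be expressed, were higher in every CD36+ NK library than in any CD36- NK library, while most of the single markers were not DEGs. Of 12 macrophage and Kupffer cell markers, 10 were tested and 4 were higher DEGs, with a median log2 fold change of 2.88 and a summed level of 6736 to 9368 CPM in CD36+ NK against 2472 to 5812 CPM in CD36- NK. DESeq2 called 8 of them higher, and 9 were higher below an unadjusted p of 0.05 in edgeR. Lyz2 was the most abundant, at 2052 to 4747 CPM over the 6 libraries (log2 fold change 0.095, edgeR adjusted p = 0.882). Without Lyz2 the sums were 2431 to 5882 CPM in CD36+ NK against 420 to 1482 CPM in CD36- NK. Csf1r was at 1138 to 2342 CPM against 242 to 749 CPM. Clec4f, a defining marker of Kupffer cells, had 624 counts (45.9 CPM) in CD36+ NK replicate 2 and 17 counts (1.51 CPM) in CD36+ NK replicate 1, and was at 0 in CD36+ NK replicate 3 and in all 3 CD36- NK libraries. Of 8 B cell markers, 1 was a higher DEG, 5 passed the adjusted p-value, and the sum was 4059 to 4504 CPM against 2596 to 3017 CPM, with Cd79a and Ms4a1 the most abundant of them. The plasmacytoid dendritic cell list (8 genes, summed 760 to 873 CPM against 504 to 638 CPM, led by Spib and Ly6d) had 0 higher DEGs and 1 lower DEG in edgeR, and 1 and 0 in DESeq2, with 4 higher below an unadjusted p of 0.05. Without Spib and Ly6d, which B cells also express, its sums overlapped, at 141 to 174 CPM against 108 to 161 CPM, and its marker Siglech stood at 2.33 to 4.27 CPM against 1.95 to 3.54 CPM (edgeR adjusted p = 0.71). The part of these cell types in the differences of the Toll-like receptors was not tested.

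Among the other myeloid lists, 9 monocyte markers, led by Fn1 and Plac8, had 1 higher and 1 lower DEG in edgeR, 1 and 3 in DESeq2. Their log2 fold changes were negative in 7, with a median of -0.70, and their sums were 2270 to 2706 CPM against 1583 to 2854 CPM. The higher DEG was Ace, at 465 to 910 CPM against 106 to 276 CPM (log2 fold change 2.04). Ccr2 was the lower DEG, at 100 to 135 CPM against 266 to 385 CPM (log2 fold change -1.35). The 10 neutrophil markers, led by Ngp and S100a9, had 0 DEGs in edgeR, 1 below an unadjusted p of 0.05 and 1 in DESeq2, with sums of 771 to 4578 CPM against 1565 to 3773 CPM, and CD36+ NK replicate 1 held the highest of these. The 8 conventional dendritic cell markers, led by Itgax and Flt3, had 3 higher and 1 lower DEG and sums of 316 to 420 CPM against 480 to 661 CPM. The lower sum in CD36+ NK came from Itgax, the lower DEG, which NK cells can also express, and without it the sums were 107 to 165 CPM against 49.8 to 95.3 CPM, with Xcr1, Clec9a and Cadm1 as the higher DEGs. Of the remaining lists, T cell markers, led by Cd4 and Lat, had 2 higher DEGs of 8 and summed to 347 CPM in CD36+ NK replicate 1 and to at most 59.0 CPM in the other libraries. Erythroid markers, led by Hbb-bs and Hba-a1, had 5 higher DEGs of 8 and sums of 350 to 796 CPM against 76.4 to 171 CPM.

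Sinusoidal endothelial markers, led by Fcgr2b and Pecam1, summed to 378 to 495 CPM against 299 to 342 CPM. Of these markers 4 were tested, with 0 DEGs in edgeR, 2 below an unadjusted p of 0.05 and 1 in DESeq2. Without Fcgr2b and Pecam1 the sums were 33.9 to 91.6 CPM against 3.52 to 18.5 CPM. Most of that was Stab2, at 32.75 to 88.96 CPM against 2.54 to 17.15 CPM. Of the hepatocyte markers only Trf was tested, a higher DEG that made up nearly all of a sum of 282 to 793 CPM against 64.2 to 190 CPM, while Alb was at 7.80 CPM or less. The stellate cell markers, led by Reln and Pdgfrb, stayed at 9.0 CPM or less in sum with 1 higher DEG of 2 tested, and Lrat was at 0 in all libraries. Platelet markers, led by Itga2b and Ppbp, stayed at 30.2 CPM or less with 2 higher DEGs of 5 tested in edgeR and 1 in DESeq2.

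The genes whose levels followed those of the members most closely were found by Pearson's r of log2 CPM over the 6 libraries, a description over libraries that fall into 2 groups. They are the highest of 14761 tested genes, so a high r follows from the selection itself, and a link between the genes was not tested. For Cd14 these were Src, a tyrosine kinase (r = 0.999), Gm14137 (r = 0.997) and Abce1, a ribosome recycling factor (r = 0.996). For Tlr2, the Toll-like receptor of lowest p-value, they were Cnr2, a cannabinoid receptor of immune cells (r = 0.999), Lman2l, a cargo receptor of the secretory pathway (r = 0.999), and Gm56828 (r = 0.997). Their own log2 fold changes were between 0.18 for Abce1 and 2.18 for Src. Among the members, Tlr8 and Tlr13 were the closest pair (r = 0.990).

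The members were also read within each form of the library names, since the names of the replicate 1 libraries are written in another form than those of replicates 2 and 3. In the replicate 1 pair, without a test, the log2 ratio was positive for all 10 members, between 0.61 for Tlr1 and 1.76 for Cd14. In replicates 2 and 3 alone the log2 fold changes were between 0.60 for Tlr4 and 1.66 for Cd14, and Cd14 and Tlr2 passed both thresholds (edgeR adjusted p = 0.039 and 0.0395). Over all 14 alternative fits no member changed sign.

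**Figure D5:**
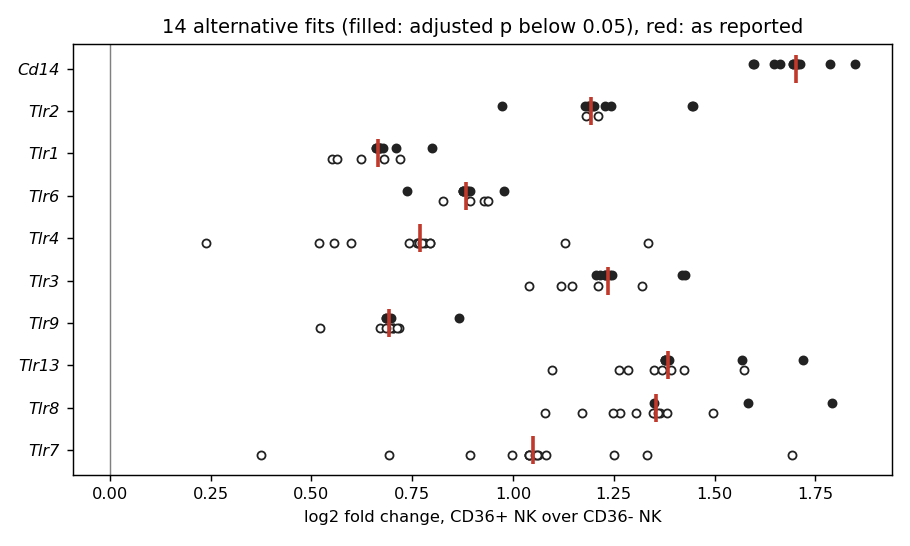
Log2 fold change of each member in CD36+ NK over CD36- NK in 14 alternative fits (points) and as reported (red lines). Filled points, drawn slightly higher, had an adjusted p below 0.05 and open points did not. All points of Cd14 are filled, those of Tlr4 and Tlr7 are all open and spread widest, and no point lies below 0.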

How the data were processed

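RNA-seq libraries of 3 CD36+ NK and 3 CD36- NK samples were analysed from 1 table of 57180 genes with mouse Ensembl identifiers. The authors filtered reads with Seqtk, mapped them with HISAT2 2.0.4 and counted fragments with StringTie 1.3.3b, and deposited raw counts per gene. FPKM values, deposited too, are these counts per length and library total, in 100% of 7439 genes whose counts all exceeded 200 (within 1%), and were used only for levels between genes. The table names no build, and the submitters' processing notes name a rat assembly, although the identifiers are of mouse, so only the table's own coordinates are given for its genes. Broken lines of 2 genes were rejoined. Whether the counting used strand is not given in the sources used here.

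Counts were tested with edgeR 4.0.16 in R 4.3.3 (filterByExpr with a minimum count of 10, TMM, quasi-likelihood test of CD36+ NK against CD36- NK without a block, Benjamini-Hochberg adjustment over 14761 genes). The standard error (SE) is the size of the log2 fold change over the square root of F. The script was tested on simulated data. The biological coefficient of variation was 20.3%, and replicates differed by more than sampling noise (chi-square per degree of freedom 14.9 to 29.4). Alternatives were DESeq2 1.42.0, other normalizations and filters, blocks, each library left out, and, added after seeing the data, replicates 2 and 3 only.

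The members and all gene lists were chosen with earlier results of these data known. Named genes are the members, the other mouse Toll-like receptors, Cd36, in each pathway list up to 5 DEGs of lowest p in each direction and the 2 of highest mean CPM, and in each marker list the 2 of highest mean CPM and those at 0 throughout. For Cd14 and the Toll-like receptor of lowest p, the 3 genes of highest correlation are named. Further genes were named after their values were seen. A further gene of the B cell list is not reported here and was left out of its counts and sum.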

Additional observations from a re-analysis of the deposited data

How the results depend on the processing

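Over 140 refits of the 10 members (14 alternatives each), 103 stayed on the same side of the adjusted p-value, 34 lost it, 3 gained it and 0 changed sign. The number of members called, all higher, was 4 as reported, 1 to 5 when each library was left out in turn, 2 in replicates 2 and 3 only and 7 with no fold threshold. It was 1 (Cd14) without replicate 2 or 3 of CD36+ NK or without replicate 3 of CD36- NK. The number of lower members was 0 throughout, in edgeR and DESeq2 and at any p-value. The pathway genes called outside the members were 12, 7 to 14 with each library left out, 6 in replicates 2 and 3 only and 22 with no fold threshold. All genes called were 880, 417 to 1160 with each library left out, 433 in replicates 2 and 3 only and 1552 with no fold threshold.

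Same-numbered libraries of the groups had deviation correlations of 0.31, 0.0515 and -0.0837 across genes, so the numbers were not taken as pairs. The numbers are those of the sample titles, and the library names number the CD36- NK libraries differently, so the replicate block may join libraries that share only a title number. With the replicate block 560 genes, 3 members and 12 pathway genes were called, and Tlr13 (edgeR adjusted p = 0.071), Tlr6 (0.0607) and Tlr9 (0.0693) no longer passed. It changed the call of no other member. With the block by form of library name 912 genes, 3 members and 13 pathway genes were called, and Tlr13 (0.0567) and Tlr9 (0.0589) were the members that no longer passed. Of the 473 refits of 34 named pathway genes, 12 changed sign, all of log2 fold changes that passed no test. Nfkbiz, at 0.06 as reported, was -0.031 with the replicate block, -0.067 with the block by form of library name and -0.223 to 0.383 with each library left out. The ranges with each library left out were -0.09 to 0.179 for Fos, -0.026 to 0.204 for Jun, -0.031 to 0.154 for Myd88 and -0.974 to 0.266 for Tlr5. The cause of these changes was not tested. With 3 libraries a group, the differences of Tlr4 and Tlr7 passed in 0 of the 14 alternative fits, and the smallest detectable difference was not estimated.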
